A study of Homo sapiens with 4 samples.

Results

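The expression of 35 genes of the ATF4 and amino acid response was followed by messenger RNA sequencing in NTERA2. This human line is known as embryonal carcinoma, and the labels describe it as a lung carcinoma line. The 35 genes were taken by name from the 26364 gene symbols in the count tables (the tables use older symbols for tRNA synthetases, such as AARS for AARS1), and all 35 were among the 16040 genes with enough counts to be tested. They were read in 6 role groups of 6 transcription regulators, 6 stress effectors and feedback genes, 6 enzymes of serine and one-carbon metabolism, 4 other metabolic enzymes, 5 amino acid transporters, and 8 genes of tRNA charging and export. The labels give a BEND3 sh60 group of 2 libraries (replicates 1 and 2) and a BEND3 LacZ group of 2 libraries (replicates 1 and 3). The replicate numbers are read here from the S numbers in the library titles. Both groups were NTERA2 cells of clone CRL-1973 grown in high-glucose DMEM with serum and antibiotics. BEND3 has BEN domains, associates with chromatin and acts as a transcriptional repressor. The sh60 group is read here as cells with a short hairpin RNA against BEND3 and the LacZ group as its control, which is a reading of short labels. Neither the hairpin's delivery nor the time of harvest is given in the sources used here.

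The integrated stress response begins when one of the kinases HRI, PKR, PERK or GCN2 phosphorylates the translation factor eIF2. General translation then slows, while translation of ATF4 mRNA increases because of short open reading frames ahead of its coding sequence. ATF4 pairs with C/EBP proteins and binds composite C/EBP-ATF response elements in genes for amino acid synthesis, amino acid uptake and tRNA charging. The level of ATF4 mRNA is therefore only a part of its control, and ATF4 protein was not measured here.

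A core of the C/EBP-ATF response element, TGATGNAA on either strand, was searched in RefSeq promoter windows (GRCh38.p14, 250 bases before to 50 after each transcript start). Windows were matched for 29 of the 35 genes, and the genes with no match were NUPR1, EIF4EBP1, PSPH, SHMT2, ALDH1L2 and SLC7A11. The core was found for 9 of the 29 genes (31.0%), against 4.46% of the 27305 genes with a window. The 29 genes had 46 windows in all, and genes with more windows have more chances of a match. By window, 9 of the 46 held the core, against 3.62% of all 35116 windows. The genes were listed as genes of the ATF4 response, so higher shares than among all genes may come from that choice. The matching stretches are shown because they mark the genes of the group with the element's letters near a start. Each is written 5′ to 3′ on the strand of its gene, with the core in capitals:
CEBPG: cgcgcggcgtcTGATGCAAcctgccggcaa
CHAC1: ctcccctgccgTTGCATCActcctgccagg
ASNS: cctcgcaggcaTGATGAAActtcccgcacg
SLC3A2: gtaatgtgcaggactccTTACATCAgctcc
SLC7A1: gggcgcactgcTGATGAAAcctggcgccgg
AARS: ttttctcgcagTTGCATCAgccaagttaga
GARS: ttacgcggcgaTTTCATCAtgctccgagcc
NARS: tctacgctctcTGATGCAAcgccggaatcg
TARS: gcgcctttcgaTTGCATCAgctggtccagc

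On GRCh38.p14 these stretches lie at chr19:33374060-33374089 (CEBPG), chr15:40953251-40953280 (CHAC1), chr7:97872458-97872487 (ASNS, minus strand), chr11:62881719-62881748 (SLC3A2) and chr13:29595663-29595692 (SLC7A1, minus strand). The stretches of the synthetase genes lie at chr16:70289675-70289704 (AARS, minus strand), chr7:30594834-30594863 (GARS), chr18:57621804-57621833 (NARS, minus strand) and chr5:33440956-33440985 (TARS). The core was on the gene's own strand in 4 genes and on the other strand in 5. Its first base lay between -209 in CHAC1 and 38 in SLC3A2, counted from the transcript start. By role, 4 of 8 synthetase and export genes, 2 of 4 transporters with a window and 0 of 3 serine and one-carbon genes with a window held it. A match is a description of the letters and not of binding, and a gene without a match may hold an element outside the windows.

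ASNS, asparagine synthetase, is the gene in which a nutrient-sensing element of this kind was characterised. The 250 bases before its most upstream RefSeq start (chr7:97872409-97872658, minus strand, GRCh38.p14) place the core at -68, again in capitals:
ASNS upstream region: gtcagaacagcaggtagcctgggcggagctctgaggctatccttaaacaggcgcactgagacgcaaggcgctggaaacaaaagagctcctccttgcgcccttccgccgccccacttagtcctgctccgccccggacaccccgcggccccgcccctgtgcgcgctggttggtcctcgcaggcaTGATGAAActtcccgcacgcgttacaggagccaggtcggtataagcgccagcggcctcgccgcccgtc

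The libraries held 33798665 and 44788461 counts in sh60 replicates 1 and 2, and 42538561 and 30338285 counts in LacZ replicates 1 and 3. BEND3 mRNA was lower in both sh60 libraries, at 55.7 and 51.96 CPM against 68.8 and 79.3 CPM in the LacZ libraries (log2 change of -0.46 with SE 0.098 and edgeR adjusted p = 0.00168). That call was lost without LacZ replicate 3, and its adjusted p over the 12 alternatives lay between 3.85e-05 and 0.153. CPM (a count scaled to a common library size, with TMM factors) is the unit of level, and every fold change below is sh60 over LacZ from edgeR's quasi-likelihood test across all tested genes. The labels do not say that replicates were separate cultures, so p-values measure the spread between these libraries only, which may be technical. Of all tested genes 15.8% were higher and 13.0% lower in sh60 at an adjusted p under 0.05, to be read beside the marker counts of the main fit. These shares were smaller without a LacZ library and larger without an sh60 library. All 12 markers of embryonal carcinoma cells were tested, of which 1 was higher and 5 were lower in sh60. They summed to 4749 and 4532 CPM in sh60 and 4906 and 5162 CPM in LacZ. Of these markers 0 were higher and 3 lower without LacZ replicate 1, 0 higher and 1 lower without LacZ replicate 3, and 2 higher without sh60 replicate 2. Of 9 fibroblast marker genes 8 were tested, of which 4 were higher and 1 was lower in sh60, and the list summed to 911.1 and 1074 CPM in sh60 against 521.1 and 424.4 CPM in LacZ. COL1A1 and COL1A2 led it, and no gene of the list was at 0 in all libraries. The number lower was 0 without LacZ replicate 1 and 2 both without a count filter and when sh60 replicate 2 was left out. Of 9 blood markers PTPRC and HBB were at 0, 2 were tested and 1 was higher (LYZ, 0.881 and 0.486 CPM in sh60, 0.190 and 0.366 CPM in LacZ, edgeR adjusted p = 0.0439), and the list summed to at most 2.85 CPM in sh60 and 2.66 CPM in LacZ. The LYZ call was lost in 5 alternatives, including those without LacZ replicate 1 or sh60 replicate 1. In these bulk samples, a change in the share of cells of one kind and a change of RNA per cell cannot be told apart. The part of the embryonal carcinoma, fibroblast and blood markers in the results below was not tested.

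The 35 genes did not move one way. Between sh60 and LacZ 8 were higher, 9 were lower and 18 did not pass an adjusted p of 0.05 in edgeR's test. Across all tested genes 28.8% were called, 15.8% higher and 13.0% lower, against 48.6% of the 35 genes, 22.9% higher and 25.7% lower. Highly expressed genes are called more easily, so the same shares were taken at a mean of 10 CPM or more, where 14 of 28 genes of the group and 31.9% of 9845 genes were called. With GC and length trends removed the split of all genes turned to 18.3% higher and 23.0% lower, and 8 of the 35 were higher and 10 lower. No test of the group as a set was made. The median log2 fold change was -0.04 over the 35 genes and -0.0042 over all genes, and the median size of a change was 0.28 and 0.22. The 35 genes were chosen with earlier results of these data known, so these shares are a description and not evidence of an excess. With 35 genes, the gap between 22.9% and 15.8% higher is also a matter of few genes. With all 4 libraries the share called was above that of all genes in both directions. For the lower genes this did not hold when a LacZ library was left out, with 1 of 35 against 7.20% of all genes without LacZ replicate 1 and 2 of 35 against 5.77% without LacZ replicate 3. All 35 genes summed to 4978 and 4928 CPM in sh60 and 5279 and 5260 CPM in LacZ.

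Reads that map to several places were not counted, and pseudogenes named after 4 of the called genes (4 for ATF4, 7 for MTHFD2, 4 for ASNS and 2 for SLC7A5) make the levels of these genes less certain. Most of the changes were small. Of the 17 genes called, 12 changed by less than 0.5 on the log2 scale and 1, ALDH1L2, by more than 1. In all 17 the sh60 libraries lay beyond both LacZ libraries, as they also did in 5 of the 18 genes that did not pass (3 higher, 2 lower). Such separation was common, at 22 of 35 genes (62.9%) against 64.4% of all tested genes, 32.1% higher and 32.3% lower.

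**Figure D1:**
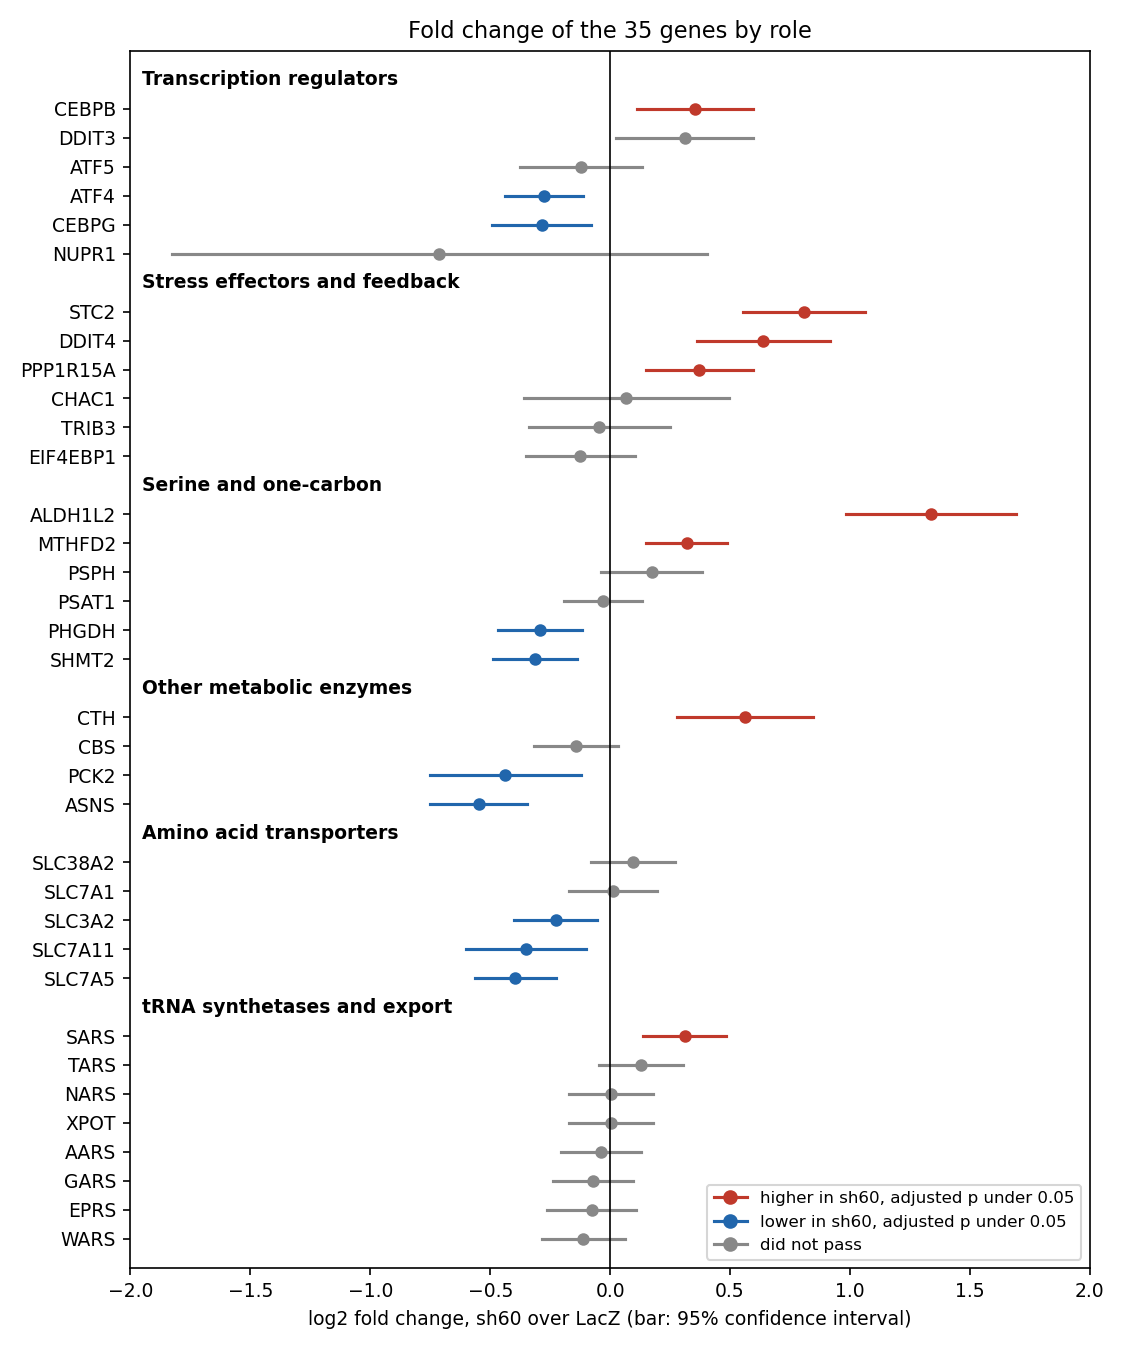
Log2 fold change of sh60 over LacZ (points, with 95% confidence intervals as bars) for the 35 genes in 6 role groups, 2 libraries per group. Calls in both directions (8 higher in red, 9 lower in blue) sit beside 18 grey genes that did not pass, and 7 of the 8 tRNA synthetase and export genes are grey.

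**Figure D2:**
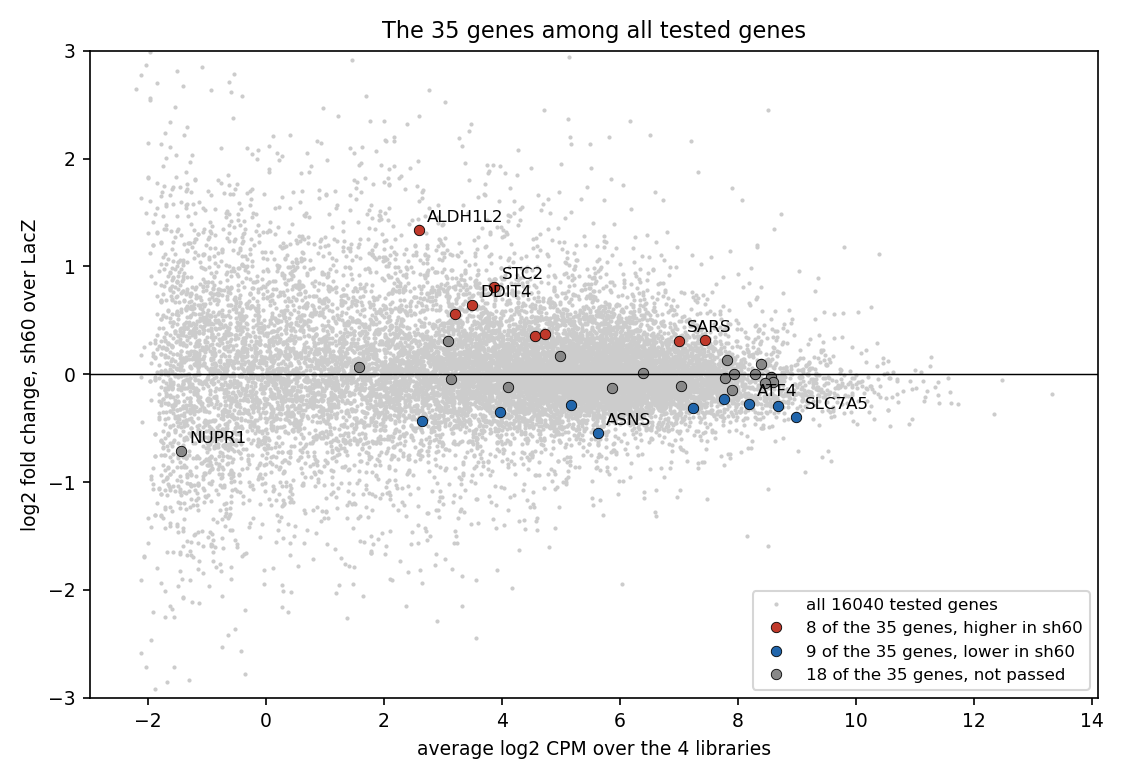
Log2 fold change (y axis) against average log2 CPM (x axis) for all 16040 tested genes in grey and the 35 genes in colour; 19 genes beyond a log2 fold change of 3 fall outside the axis. Of the 17 called genes 12 lie within 0.5 of the zero line, and ALDH1L2, STC2, DDIT4, CTH and ASNS lie further out. Most called genes are well expressed.

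Among the transcription regulators, ATF4 mRNA itself was lower in sh60. ATF4 (chromosome 22, 39916564 to 39918691, hg19) measured 258.2 and 268.5 CPM in sh60 replicates 1 and 2, against 318.0 and 319.5 CPM in LacZ replicates 1 and 3. Both sh60 libraries were below both LacZ libraries, and the group means were 263.4 ± 7.35 and 318.8 ± 1.08 CPM (SD, n = 2 each). The level was 1.21-fold lower (log2 change of -0.28 with SE 0.078 and edgeR adjusted p = 0.0128). CEBPG, which dimerises with ATF4, measured 32.6 and 32.5 CPM in sh60 and 39.2 and 40.2 CPM in LacZ, so that it too was lower in both sh60 libraries (log2 change of -0.29 with SE 0.098 and edgeR adjusted p = 0.0355). CEBPB, another C/EBP partner, went the other way, with 24.4 and 28.1 CPM in sh60 and 21.9 and 19.1 CPM in LacZ (log2 change of 0.35 with SE 0.12 and edgeR adjusted p = 0.0279).

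The other regulators did not pass. DDIT3, which encodes the pro-apoptotic factor CHOP, measured 9.16 and 9.57 CPM in sh60 and 7.46 and 7.65 CPM in LacZ. The libraries did not overlap, but the call was not reached (log2 fold change 0.31, 95% confidence interval 0.03 to 0.60 before adjustment, edgeR adjusted p = 0.0955). ATF5, a relative of ATF4 that is also translated under stress, measured 16.7 and 16.0 CPM in sh60 and 19.3 and 16.1 CPM in LacZ. NUPR1, a small stress-induced chromatin protein, was near the floor of detection with 9 and 10 counts in the sh60 libraries and 23 and 6 counts in the LacZ libraries. Its interval of -1.83 to 0.40 on the log2 scale leaves its change undetermined at this depth. ATF4, CEBPG and CEBPB kept their direction in all 12 alternatives, which the separation of their libraries made likely. The calls of ATF4 and CEBPG were lost when either LacZ library was left out, that of CEBPG also with library totals only, and that of CEBPB without LacZ replicate 3 or sh60 replicate 2.

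The stress effectors that passed were all higher in sh60, 3 of 6, against 15.8% of all tested genes called higher. STC2, a secreted glycoprotein induced by ER stress and hypoxia (chromosome 5, 172741726 to 172756506, hg19), measured 17.8 and 18.98 CPM in sh60 and 10.2 and 10.9 CPM in LacZ. The groups were well apart, with means of 18.4 ± 0.836 and 10.5 ± 0.507 CPM (SD, n = 2 each) and a 1.75-fold rise (log2 change of 0.81 with SE 0.12 and edgeR adjusted p = 6.55e-05). DDIT4, which encodes the mTORC1 inhibitor REDD1 (chromosome 10, 74033677 to 74035797, hg19), measured 12.8 and 14.4 CPM in sh60 and 9.28 and 8.18 CPM in LacZ. It rose 1.56-fold (log2 change of 0.64 with SE 0.13 and edgeR adjusted p = 0.00132), and DDIT4 is also a known target of p53 and of hypoxia signalling. PPP1R15A, which encodes the phosphatase subunit GADD34 that reverses eIF2 phosphorylation, measured 30.2 and 29.3 CPM in sh60 and 24.1 and 21.8 CPM in LacZ (1.29-fold, log2 change of 0.37 with SE 0.11 and edgeR adjusted p = 0.0132).

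The effectors usually read as close reporters of ATF4 did not pass. TRIB3, a pseudokinase that feeds back on ATF4, measured 7.90 and 9.30 CPM in sh60 and 9.14 and 8.65 CPM in LacZ. CHAC1, which degrades glutathione, measured 2.58 and 3.34 CPM in sh60 and 3.06 and 2.59 CPM in LacZ. The libraries of both genes overlapped. Their 95% intervals on the log2 scale ran from -0.34 to 0.25 for TRIB3 and from -0.36 to 0.50 for CHAC1, so that a change of the size seen in STC2 lies outside both. EIF4EBP1, which encodes the translation repressor 4E-BP1, measured 49.2 and 62.0 CPM in sh60 and 62.5 and 58.95 CPM in LacZ. Its sh60 libraries lay apart, and without sh60 replicate 2 it was called lower. The PPP1R15A call was lost when either LacZ library was left out, while STC2 and DDIT4 passed in all 12 alternatives.

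**Figure D3:**
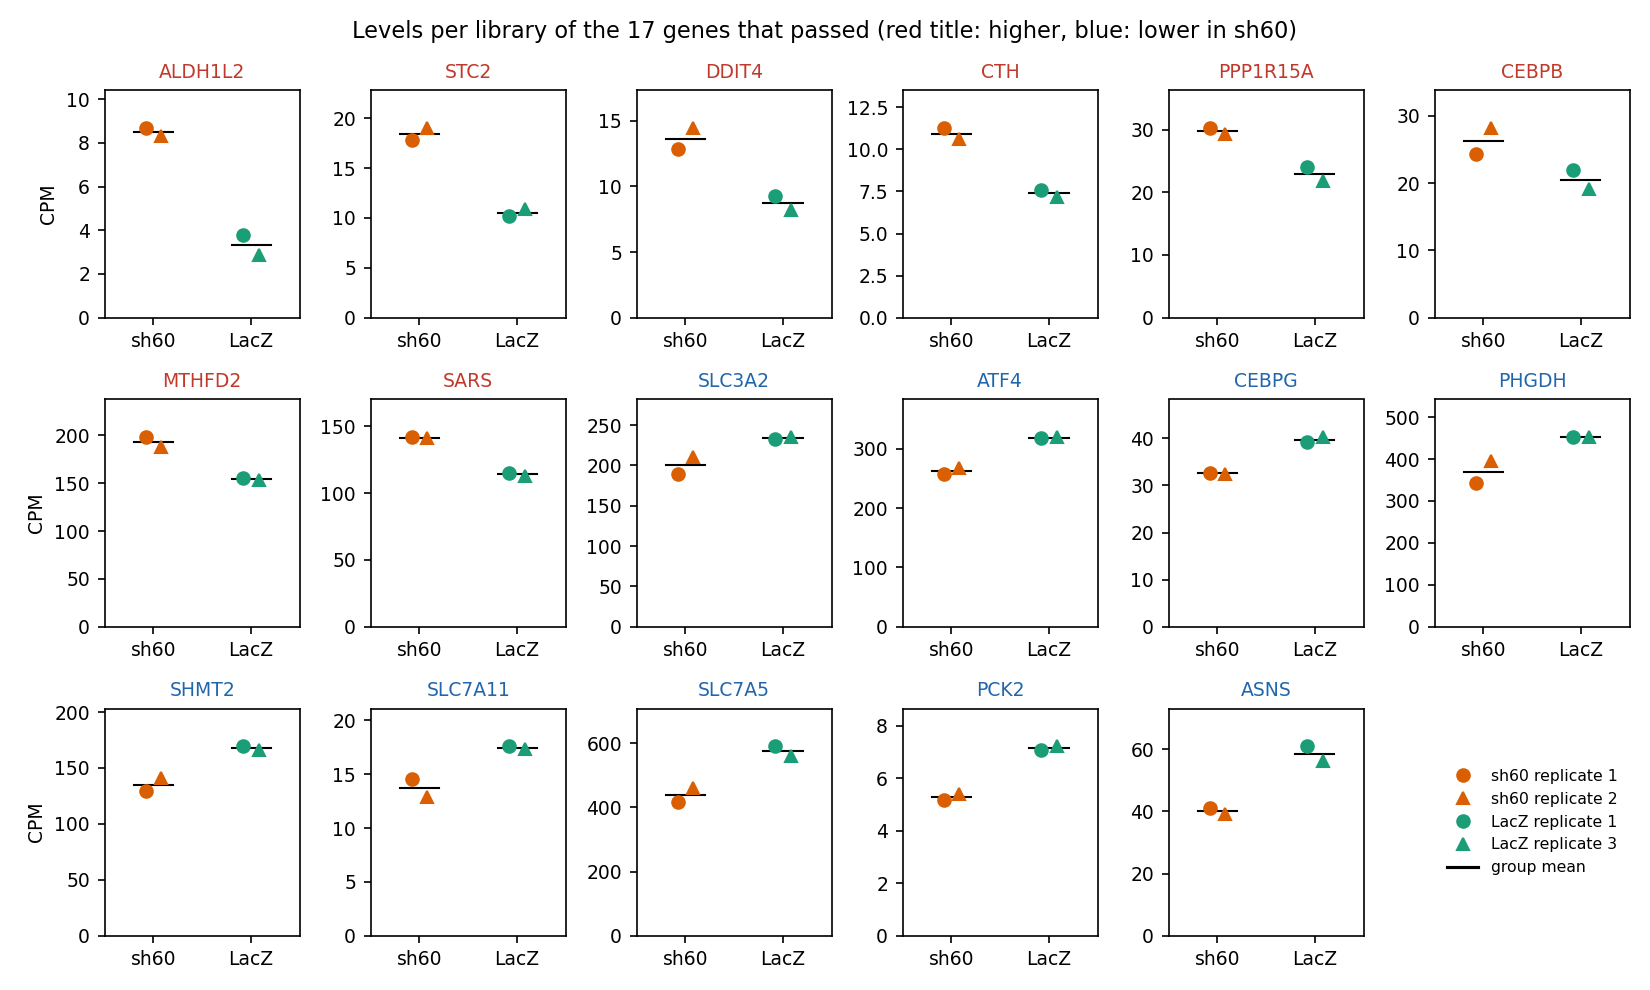
CPM in each library (y axis from 0) of the 17 genes that passed, sh60 left and LacZ right in each panel, with the group mean as a black line. The 2 libraries of a group lie close together in most panels, and no panel shows overlap between the groups.

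Serine synthesis and the folate cycle of mitochondria changed in mixed directions. The largest rise among the 35 genes was in ALDH1L2, which oxidises formyl-tetrahydrofolate in mitochondria (chromosome 12, 105413562 to 105478341, hg19). It measured 8.66 and 8.33 CPM in sh60 and 3.78 and 2.86 CPM in LacZ. The means were 8.50 ± 0.236 and 3.32 ± 0.646 CPM (SD, n = 2 each), a 2.53-fold rise (log2 change of 1.34 with SE 0.17 and edgeR adjusted p = 1.01e-05). MTHFD2, the mitochondrial methylene-tetrahydrofolate dehydrogenase (chromosome 2, 74425690 to 74442424, hg19), measured 198.0 and 187.4 CPM in sh60 and 155.6 and 153.3 CPM in LacZ, a 1.25-fold rise (log2 change of 0.32 with SE 0.081 and edgeR adjusted p = 0.00627).

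The enzymes at the entry to the same route were lower. PHGDH, the first enzyme of serine synthesis from a glycolytic intermediate (chromosome 1, 120254419 to 120286849, hg19), measured 342.7 and 394.8 CPM in sh60 and 451.7 and 451.9 CPM in LacZ. Its sh60 libraries differed from each other but both lay below LacZ (1.23-fold lower, log2 change of -0.29 with SE 0.084 and edgeR adjusted p = 0.0134). SHMT2, which passes a carbon unit from serine to mitochondrial folate, measured 129.1 and 140.9 CPM in sh60 and 169.3 and 166.3 CPM in LacZ (1.24-fold lower, log2 change of -0.31 with SE 0.084 and edgeR adjusted p = 0.0086).

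The later steps of serine synthesis did not pass. PSAT1, the phosphoserine aminotransferase, measured 379.8 and 366.6 CPM in sh60 and 374.5 and 386.9 CPM in LacZ, with overlapping libraries and an interval of -0.19 to 0.13 on the log2 scale. PSPH, the phosphoserine phosphatase, measured 33.9 and 33.3 CPM in sh60 and 29.9 and 29.7 CPM in LacZ, higher in both sh60 libraries but short of the threshold (edgeR adjusted p = 0.213). Calls of PHGDH, SHMT2 and MTHFD2 were lost when either LacZ library was left out, with log2 fold changes between -0.40 and -0.19 for PHGDH, -0.38 and -0.25 for SHMT2 and 0.22 and 0.36 for MTHFD2 over all alternatives.

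Among the other metabolic enzymes ASNS fell and CTH rose. ASNS (chromosome 7, 97481429 to 97501854, hg19), whose upstream element is printed above, measured 40.97 and 39.2 CPM in sh60 and 60.9 and 56.2 CPM in LacZ. The means were 40.1 ± 1.24 and 58.6 ± 3.39 CPM (SD, n = 2 each), which is 1.46-fold lower and the largest fall among the called genes of the group (log2 change of -0.55 with SE 0.097 and edgeR adjusted p = 0.000327). CTH, which makes cysteine from cystathionine (chromosome 1, 70876901 to 70905534, hg19), measured 11.2 and 10.6 CPM in sh60 and 7.57 and 7.19 CPM in LacZ, a 1.48-fold rise (log2 change of 0.56 with SE 0.13 and edgeR adjusted p = 0.00402). Both calls stood in all 12 alternatives.

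PCK2, the mitochondrial phosphoenolpyruvate carboxykinase, was lower at 5.17 and 5.39 CPM in sh60 against 7.10 and 7.22 CPM in LacZ (log2 change of -0.44 with SE 0.15 and edgeR adjusted p = 0.0355). Its call was the least stable of the 17, lost in 5 alternatives, which were DESeq2 and each library left out in turn. CBS, the enzyme before CTH in the route from homocysteine to cysteine, measured 212.6 and 238.7 CPM in sh60 and 245.1 and 252.9 CPM in LacZ and did not pass (edgeR adjusted p = 0.226), although it was called lower without sh60 replicate 2. The 95% interval of CBS on the log2 scale, -0.32 to 0.03, did not leave out no change. The difference between CBS and CTH was not tested.

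The amino acid transporters that passed were all lower, 3 of 5, against 13.0% of all tested genes called lower. SLC7A5, the light chain of the large neutral amino acid transporter LAT1 (chromosome 16, 87863629 to 87903100, hg19), measured 415.9 and 461.1 CPM in sh60 and 590.8 and 562.2 CPM in LacZ. The means were 438.5 ± 31.9 and 576.5 ± 20.2 CPM (SD, n = 2 each), which is 1.31-fold lower (log2 change of -0.39 with SE 0.081 and edgeR adjusted p = 0.00119). SLC3A2, the heavy chain that pairs with SLC7A5 and SLC7A11 (chromosome 11, 62623484 to 62656355, hg19), measured 189.4 and 210.4 CPM in sh60 and 233.2 and 234.8 CPM in LacZ (1.17-fold lower, log2 change of -0.23 with SE 0.083 and edgeR adjusted p = 0.0475). SLC7A11, the cystine importer xCT, measured 14.6 and 12.9 CPM in sh60 and 17.6 and 17.3 CPM in LacZ (1.28-fold lower, log2 change of -0.35 with SE 0.12 and edgeR adjusted p = 0.0337).

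SLC3A2, SLC7A5 and SLC7A11 were thus each lower in both sh60 libraries than in either LacZ library. The cationic amino acid transporter SLC7A1 measured 84.3 and 83.8 CPM in sh60 and 84.6 and 82.2 CPM in LacZ, and its interval of -0.17 to 0.19 on the log2 scale leaves out the fall of SLC7A5. SLC38A2, the glutamine transporter SNAT2 and a usual target of amino acid shortage, measured 365.5 and 327.5 CPM in sh60 and 336.2 and 311.5 CPM in LacZ, with overlapping libraries. Without sh60 replicate 2 it was called higher. The SLC7A5 call was lost without LacZ replicate 1, and the SLC3A2 call without either LacZ library, by DESeq2 and with library totals only. The SLC7A11 call was lost without LacZ replicate 1, LacZ replicate 3 or sh60 replicate 2, and by DESeq2.

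Of the 8 genes of tRNA charging and export only SARS passed, against 28.8% of all tested genes. SARS, seryl-tRNA synthetase (chromosome 1, 109756515 to 109780804, hg19), measured 141.8 and 141.4 CPM in sh60 and 115.2 and 113.0 CPM in LacZ, a 1.24-fold rise (log2 change of 0.31 with SE 0.082 and edgeR adjusted p = 0.00812), which was lost when either LacZ library was left out. The other 7 had log2 fold changes between -0.11 in WARS, the tryptophanyl enzyme, and 0.13 in TARS, the threonyl enzyme. WARS measured 122.1 and 129.6 CPM in sh60 and 136.7 and 135.2 CPM in LacZ, and TARS measured 247.7 and 221.1 CPM in sh60 and 214.2 and 214.5 CPM in LacZ.

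The charging enzymes with a core element near the start are among these 7. AARS, the alanyl enzyme, measured 214.7 and 221.2 CPM in sh60 and 219.4 and 228.1 CPM in LacZ. GARS, the glycyl enzyme, measured 393.0 and 364.4 CPM in sh60 and 390.1 and 406.5 CPM in LacZ. NARS, the asparaginyl enzyme, measured 259.2 and 230.8 CPM in sh60 and 244.2 and 244.4 CPM in LacZ, so that the LacZ values fell between the sh60 values.

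EPRS, which charges glutamate and proline, measured 374.6 and 313.0 CPM in sh60 and 359.4 and 366.0 CPM in LacZ. It was called lower when sh60 replicate 1 was left out, and also once trends of GC content and length were taken out. XPOT, the exporter of tRNA from the nucleus, measured 331.2 and 293.6 CPM in sh60 and 307.4 and 316.0 CPM in LacZ. The 8 genes summed to 2084 and 1915 CPM in sh60 and 1987 and 2024 CPM in LacZ. The gap between the sh60 libraries was therefore wider than that between the groups. TARS was called higher without sh60 replicate 2.

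Of the 9 genes with the core element, 3 were lower (CEBPG, ASNS and SLC3A2), 0 were higher and 6 did not pass. Of all tested genes 13.0% were lower and 15.8% higher. As given above, the calls of CEBPG and SLC3A2 were lost in several alternatives, while that of ASNS stood in all 12. Among matched genes, 3 of 7 lower genes, 0 of 7 higher genes and 6 of 15 genes that did not pass held it. These counts are a description and were not tested. Only the promoter windows were searched and ALDH1L2 had none, so genes without a match may hold an element elsewhere.

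Levels between genes are compared per kilobase of exon, as RPKM made from the scaled CPM and the exon length in the tables. The order in LacZ ran from PHGDH, at 183.0 RPKM in sh60 and 224.2 RPKM in LacZ, through PSAT1 (165.4 and 168.8 RPKM) and ATF4 (129.9 and 157.3 RPKM) to NUPR1 at 0.266 and 0.409 RPKM. ALDH1L2, with the largest fold change, was the lowest after NUPR1, at 1.13 RPKM in sh60 and 0.440 RPKM in LacZ. Its rise was therefore a change among scarce transcripts. TRIB3 and CHAC1 were also low, at 2.98 and 1.90 RPKM in sh60 and 3.08 and 1.81 RPKM in LacZ.

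**Figure D4:**
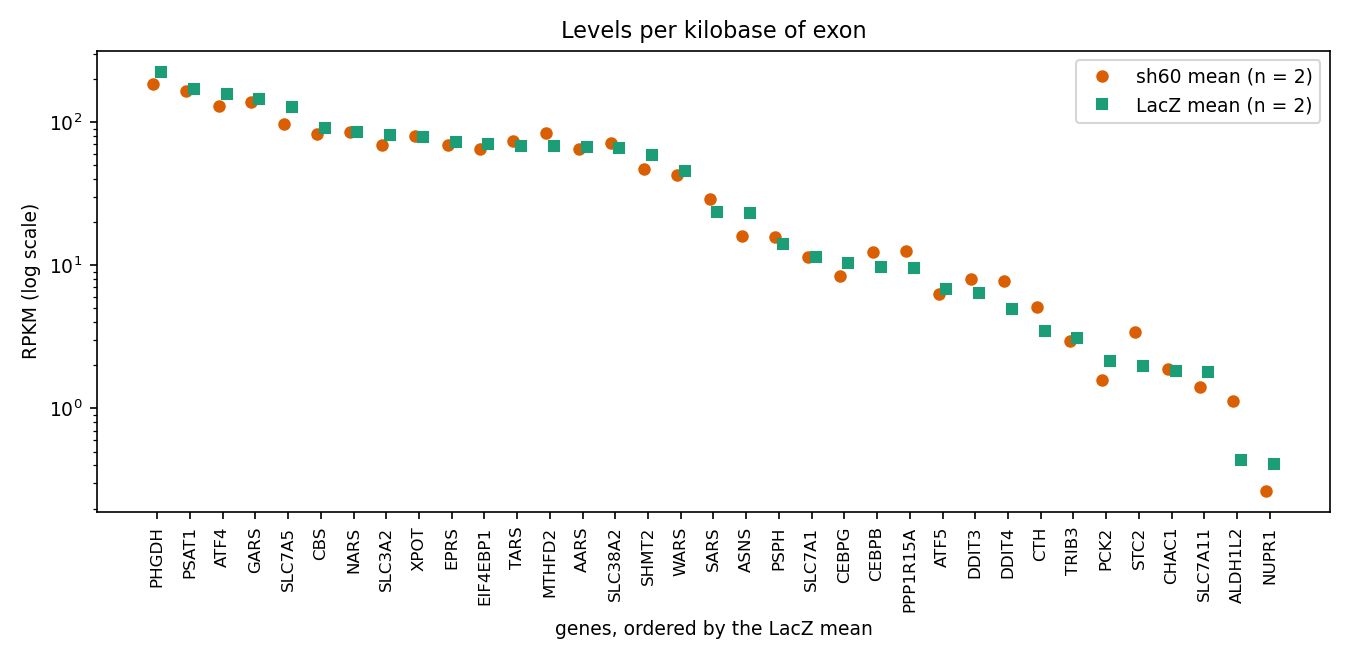
Mean RPKM (log scale) in sh60 (circles) and LacZ (squares) for the 35 genes, ordered by the LacZ mean. PHGDH, PSAT1 and ATF4 are at the top, NUPR1 and ALDH1L2 at the bottom, and the groups differ little beside the range between genes.

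Leaving out a LacZ library removed most calls, while directions held. In those fits the spread between replicates came from the sh60 pair alone. That pair lay further apart (chi-square of the counts over its degrees of freedom 15.8, against 5.89 for the LacZ pair). A lost call there need not mean a smaller fold change. A kept direction says little when 1 library is left out, because in all 17 called genes the sh60 libraries lay beyond both LacZ libraries. All 17 called genes kept their direction in all 12 alternatives, and 5 of them (ALDH1L2, STC2, DDIT4, CTH and ASNS) also stayed past the threshold in all 12. Without LacZ replicate 1, 5 genes were higher and 1 was lower, and without LacZ replicate 3, 4 were higher and 2 lower. The share of all genes called fell in the same fits, to 11.1% higher and 7.20% lower without LacZ replicate 1 and to 8.04% higher and 5.77% lower without LacZ replicate 3. The count of lower genes in the group was then no longer above the share of all genes. In 12 of the 17 genes LacZ replicate 1 lay between LacZ replicate 3 and the sh60 mean, as it did in 71.3% of all called genes.

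**Figure D5:**
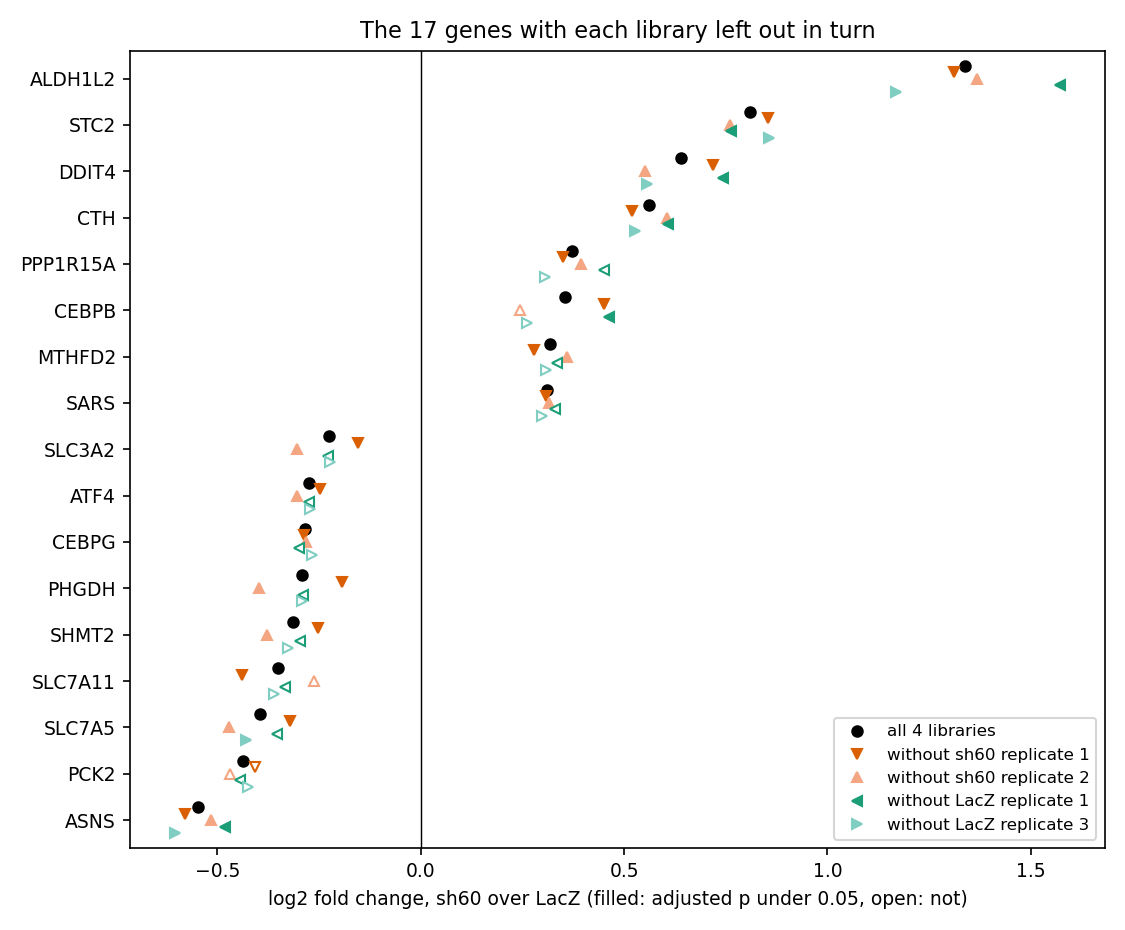
Log2 fold change of sh60 over LacZ for the 17 called genes with all 4 libraries and with each library left out; filled symbols passed an adjusted p of 0.05 and open symbols did not. Values stay on 1 side of zero for every gene, as the groups did not overlap in any of them. Most open symbols belong to fits without a LacZ library.

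Further lists of genes of the pathway were read in the same fit, and some genes, such as GDF15, SESN2 and SLC1A4, stand in more than 1 list. Their counts in the main fit are to be read beside the 15.8% of all tested genes that were higher and the 13.0% that were lower. Counts from other fits have other shares of all genes beside them. Those shares were 18.3% higher and 23.0% lower with GC and length trends removed, and 15.1% higher and 16.1% lower with upper-quartile scaling. They were smaller without a LacZ library, as given above, and larger without an sh60 library. These lists too were chosen with earlier results of these data known. Genes upstream of ATF4 were read from a list of the eIF2 kinases, eIF2 and eIF2B subunits and their regulators. Of 17 tested, 2 rose, 0 fell and 15 did not pass, and the median log2 fold change was 0.05. The 2 were kinases. EIF2AK4, which encodes the amino acid sensor GCN2, measured 86.7 and 86.2 CPM in sh60 and 62.8 and 56.6 CPM in LacZ (1.45-fold, log2 change of 0.53 with SE 0.092 and edgeR adjusted p = 0.000269). EIF2AK3, which encodes the ER stress sensor PERK, measured 40.8 and 37.6 CPM in sh60 and 27.7 and 25.1 CPM in LacZ (1.48-fold, log2 change of 0.57 with SE 0.10 and edgeR adjusted p = 0.00044). With GC and length trends removed, 3 genes of this list fell.

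In a list of 23 other known ATF4 targets, 11 of 22 tested genes were higher, 5 were lower and 6 did not pass (median log2 fold change 0.20). FAM129A (also named NIBAN1), a stress-induced regulator of translation, measured 27.3 and 26.6 CPM in sh60 and 10.2 and 8.78 CPM in LacZ, a 2.82-fold rise. GDF15, a secreted stress cytokine, rose 3.49-fold, and ATF3, a stress-induced transcription factor, rose 1.97-fold with 47.9 and 51.1 CPM in sh60 and 28.2 and 22.0 CPM in LacZ. VLDLR, a lipoprotein receptor, rose 1.77-fold. GDF15, ATF3 and SESN2 of this list are also known p53 targets. Without LacZ replicate 3, 7 were higher and 2 lower, and without LacZ replicate 1, 3 were lower.

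Among further enzymes and carriers of the folate cycle 6 were lower and 1 was higher of 15 tested (median log2 fold change -0.23). MTHFD1L, the mitochondrial formate-releasing enzyme, measured 51.5 and 52.5 CPM in sh60 and 83.6 and 84.7 CPM in LacZ (1.62-fold lower, log2 change of -0.69 with SE 0.090 and edgeR adjusted p = 1.49e-05). DLD, a subunit of the glycine cleavage system and of other dehydrogenases, and SHMT1, the cytosolic partner of SHMT2, were 1.47-fold and 1.37-fold lower. The mitochondrial folate carrier SLC25A32 rose 1.67-fold, with 59.4 and 53.1 CPM in sh60 and 34.3 and 32.97 CPM in LacZ. Without LacZ replicate 1, 2 genes were lower, without LacZ replicate 3, 3 were lower, and 10 were lower once GC and length trends were taken out.

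Among other amino acid transporters 9 were higher and 3 were lower of 20 tested (median log2 fold change 0.26). The glutamate transporters SLC1A1 and SLC1A2 rose 3.17-fold and 1.55-fold, and the neutral amino acid transporter SLC1A4 rose 1.51-fold. SLC1A1 was scarce, with 3.05 and 2.87 CPM in sh60 and 1.16 and 0.632 CPM in LacZ. SLC7A8, a further light chain for SLC3A2, was lower with 88.4 and 93.3 CPM in sh60 and 124.9 and 130.8 CPM in LacZ. Without LacZ replicate 1, 5 were higher, and without LacZ replicate 3, 3 were higher.

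Synthetase genes outside the 35 were read in cytosolic and mitochondrial lists. Among 16 other genes of cytosolic charging 1, YARS, was lower (253.4 and 258.2 CPM in sh60, 317.8 and 323.8 CPM in LacZ) and 0 were higher. Among 17 mitochondrial synthetases 3 were lower, among them SARS2 by 1.30-fold and EARS2 by 1.20-fold, and 0 were higher. These counts moved with the processing. Once GC and length trends were taken out, 6 cytosolic and 10 mitochondrial genes were lower. Leaving out sh60 replicate 2 gave 5 and 7 lower and 1 cytosolic gene higher. Leaving out LacZ replicate 1 gave 0 cytosolic and 1 mitochondrial gene lower, and leaving out LacZ replicate 3 gave 0 of either. Without sh60 replicate 1, 3 cytosolic genes were lower, and with upper-quartile scaling 6 mitochondrial genes were lower.

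Among the chaperones and sensors of the other ER stress arms, 1 was higher and 0 were lower of 19 tested (median log2 fold change 0.0080). That gene was EDEM1, which helps to degrade misfolded glycoproteins, at 54.9 and 52.0 CPM in sh60 and 39.4 and 36.96 CPM in LacZ. Without LacZ replicate 3, 0 were higher, without sh60 replicate 1, 2, and without sh60 replicate 2, 5 were higher and 3 lower. Lower genes numbered 2 once GC and length trends were taken out and 1 with upper-quartile scaling or no count filter.

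Of 16 genes of amino acid sensing by mTORC1, 4 were higher and 2 lower, and 3 of the 4 were sestrins, which restrain mTORC1. SESN2, the leucine sensor, measured 74.8 and 81.7 CPM in sh60 and 48.3 and 46.1 CPM in LacZ, and SESN1 measured 49.9 and 47.4 CPM in sh60 and 29.8 and 28.9 CPM in LacZ, a 1.66-fold rise in each. SESN3 rose 1.51-fold. MLST8, a subunit of mTOR complexes, was 1.22-fold lower. The number lower was 0 without LacZ replicate 1, LacZ replicate 3 or sh60 replicate 1 and with library totals only, 1 by DESeq2, and 4 without sh60 replicate 2.

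Of 10 tested targets of NRF2, which also drives SLC7A11, 1 was lower and 0 were higher, and the lower one was SLC7A11 itself. Of 10 tested genes of mitochondrial stress 2 were higher, GDF15 and the chaperone TRAP1, and 1 was lower, the chaperone HSPA9 (534.8 and 478.4 CPM in sh60, 616.4 and 637.7 CPM in LacZ). Over the alternatives 0 to 2 NRF2 targets were higher and 0 to 2 lower, and 1 to 3 mitochondrial stress genes were higher and 0 to 4 lower. Without LacZ replicate 1 or 3, 0 NRF2 targets and 0 mitochondrial stress genes were lower.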

How the data were processed

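The authors deposited read counts per gene, whole numbers that were not normalized, 1 table per library. The submitters' processing notes name FastQC, the aligner STAR (2.7.6a) and the build hg19, also called GRCh37. Per the file headers, featureCounts (Subread 2.0.0) summed exon reads by gene symbol at strand setting 2. The command has no option for reads that map to several places, so with the tool's defaults these were left out. This can lower genes with near-identical copies, and GENCODE 29 names pseudogenes for 12 of the 35 genes, up to 7 for MTHFD2. Only ATF5 shares exon bases with another gene on its strand.

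Single-end stranded mRNA libraries were made per the labels' protocols. Libraries held 30338285 to 44788461 counts, 1 count being worth 0.0221 to 0.0333 CPM. The chi-square of the counts, divided by its degrees of freedom, was 15.8 between the sh60 libraries and 5.89 between the LacZ libraries, so neither pair was 1 library deposited again. The test was edgeR 4.0.16 (R 4.3.3) with TMM scaling, filterByExpr, the quasi-likelihood test on all 4 libraries and Benjamini-Hochberg adjustment over 16040 genes. The common biological coefficient of variation was 7.33%. The alternatives tried were DESeq2 1.42.0, its size factors alone, scaling by upper quartiles or by library totals, limma-voom (limma 3.58.1), no count filter, 1 CPM in 2 libraries, loess trends of GC content and exon length removed (GC content known for 94.2% of genes), and each library left out. The code was tested on simulated data.

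The 35 genes and the lists were chosen with earlier results of these data known. All 35 are named, and from each other list up to 4 genes with the smallest p among those that passed. The values of 1 gene that this rule names are not reported here. Sequences are from RefSeq on GRCh38.p14, and coordinates of genes are those of the hg19 tables.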

Additional observations from a re-analysis of the deposited data

How the results depend on the processing

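No paired analysis was possible because the groups share only replicate number 1, as read from the library titles. All 17 called genes kept their direction in all 12 alternatives. Their groups did not overlap, so leaving out 1 library could hardly turn a direction. Leaving out each library in turn gave 2287 to 5486 changed genes (4624 with all), of which 1331 to 2789 were higher and 956 to 2697 lower, 4 to 9 of the 35 genes higher and 1 to 9 lower, and a BEND3 log2 fold change of -0.56 to -0.36. BEND3 did not pass without LacZ replicate 3 (-0.36, edgeR adjusted p = 0.153). With GC and length trends removed 3691 genes were lower. A group left with 1 library is assumed to vary like the other. Direction turned only in genes that did not pass. Leave-one-out log2 ranges were -0.243 to 0.0238 for ATF5, -0.173 to 0.0623 for TRIB3, -0.139 to 0.228 for CHAC1, -0.303 to 0.0295 for EIF4EBP1, -0.0085 to 0.0379 for SLC7A1, -0.212 to 0.0474 for EPRS, -0.0820 to 0.0865 for NARS and -0.0860 to 0.0885 for XPOT. Upper-quartile scaling gave -0.0177 for SLC7A1, -0.0260 for NARS and -0.0269 for XPOT, limma-voom -0.00030 for NARS and -0.00065 for XPOT, and GC and length trends removed -0.0882 for NARS and -0.0836 for XPOT. NUPR1 was filtered out without LacZ replicate 1. The cause of these changes was not tested.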
